A study of Mus musculus with 24 samples.

Results

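Nnt and 8 other nuclear genes whose products supply reducing power to mitochondria or use it to remove peroxides and superoxide were measured by bulk RNA sequencing of mouse heart. The members were taken by gene symbol (Nnt, Idh2, Sod2, Prdx3, Prdx5, Txn2, Txnrd2, Gpx4 and Glrx2), and all 9 were found among the 20961 genes of the deposited table and were among the 17203 genes tested. Both sexes of NZO/HlLtJ, of C57BL/6J and of CAST/EiJ, all inbred, gave 24 libraries, from mice on a diet labelled 10% fat with fiber (the control) or 44% fat with fiber (called high fat, high sugar). The 12 groups of strain, sex and diet had 2 libraries each, so each strain had 8 libraries. All groups were labelled wild type and untreated, the diets began at week 6 and the hearts were taken at week 15. C57BL/6J is known to carry a deletion of several exons of Nnt that leaves it without a working enzyme. This deletion is part of the strain and was present under both diets, while the other strains differ from C57BL/6J throughout the genome, so the deletion and the rest of the strain background cannot be told apart here. Nothing in the labels states that both libraries of a group are from different animals. A p-value here therefore measures the spread between these samples alone, which may be technical.

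Nicotinamide nucleotide transhydrogenase, the product of Nnt, sits in the inner mitochondrial membrane and lets protons flow back into the matrix while it passes hydride from NADH to NADP, which makes NADPH. Isocitrate dehydrogenase 2 (Idh2) makes NADPH in the matrix from isocitrate. Manganese superoxide dismutase (Sod2) turns superoxide into hydrogen peroxide, which peroxiredoxins 3 and 5 (Prdx3, Prdx5) remove. Thioredoxin 2 (Txn2) reduces the peroxiredoxins again and is itself reduced by thioredoxin reductase 2 (Txnrd2) with NADPH. Glutathione peroxidase 4 (Gpx4) removes lipid peroxides, and glutaredoxin 2 (Glrx2) reverses the binding of glutathione to proteins. In the heart, with its dense mitochondria and constant respiration, these pathways are known to limit oxidative damage.

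Among the members, 2 encode selenoproteins, in which a UGA codon is read as selenocysteine at the active site, so the coding sequence around that codon is shown (TGA in capitals, 5′ to 3′, GRCm38 reference genome with the GENCODE annotation). In Gpx4 it is codon 129 of the longest coding sequence and in Txnrd2 it comes directly before the last amino acid and the stop codon.
Gpx4, selenocysteine codon at chr10:80054737-80054739, plus strand: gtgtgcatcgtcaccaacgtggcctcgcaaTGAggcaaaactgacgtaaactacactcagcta
Txnrd2, selenocysteine codon at chr16:18477772-18477774, plus strand: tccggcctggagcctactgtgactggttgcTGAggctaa

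The upstream sequences of Sod2, Prdx3 and Txn2, whose levels moved together over the libraries as given after the strain results, are shown next. Each is the 250 bases before the start site in RefSeq (GRCm38.p6), 5′ to 3′ along the gene, with GGGCGG (the core bound by SP1) and CCAAT in capitals on either strand, so that CCGCCC and ATTGG mark the same motifs in reverse.
Sod2 promoter, chr17:13007589-13007838, plus strand: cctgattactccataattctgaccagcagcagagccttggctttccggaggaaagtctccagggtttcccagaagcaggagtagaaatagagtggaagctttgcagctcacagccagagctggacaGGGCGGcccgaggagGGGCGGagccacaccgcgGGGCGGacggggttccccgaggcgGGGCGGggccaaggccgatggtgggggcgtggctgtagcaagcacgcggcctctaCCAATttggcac
Prdx3 promoter, chr19:60874539-60874788, minus strand: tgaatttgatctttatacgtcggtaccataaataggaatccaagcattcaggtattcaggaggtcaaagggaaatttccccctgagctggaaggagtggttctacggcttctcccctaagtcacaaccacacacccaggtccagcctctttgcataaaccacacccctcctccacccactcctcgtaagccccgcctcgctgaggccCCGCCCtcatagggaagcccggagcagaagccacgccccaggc
Txn2 promoter, chr15:77928995-77929244, minus strand: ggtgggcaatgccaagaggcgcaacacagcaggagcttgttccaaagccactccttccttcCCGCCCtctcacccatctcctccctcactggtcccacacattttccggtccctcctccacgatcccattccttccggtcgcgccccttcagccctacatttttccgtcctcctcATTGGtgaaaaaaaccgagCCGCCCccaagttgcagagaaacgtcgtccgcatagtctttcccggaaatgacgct
Sod2 had GGGCGG at 4 places, from base -124 to base -67, and CCAAT at base -12. Prdx3 had GGGCGG at base -43 alone, and Txn2 had it at bases -189 and -56 with CCAAT at base -75. RefSeq entries were matched for 8 of the 9 members (none for Nnt), with 14 start sites in all. GGGCGG was found at 10 of the 14, against 32.7% of 32851 upstream sequences of the same length, and CCAAT at 8 of the 14, against 33.8%. By gene, these matches fell in 8 members for GGGCGG and 5 for CCAAT. Gpx4 and Glrx2 had several start sites each, some with overlapping upstream sequences. The same bases could thus be counted more than once, and the 14 are not independent. The antioxidant response element core TGACNNNGC was at 0 of the 14 and at 10.2% of all such sequences, and the motif TCAAGGTCA of the estrogen-related receptors at 0 of 14 and 0.387%. These letter matches on both strands describe the reference sequence of C57BL/6J and say nothing of binding.

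The libraries held 30205073 to 52254040 counts and their normalization factors lay between 0.954 and 1.06. Levels are given as CPM, which are counts scaled to a fixed library total after this normalization. Cardiomyocyte markers summed to 55105 to 70630 CPM in every library, and all 10 of 10 were detected. The summed fibroblast markers (8 of 8 in the table) lay between 2015 and 2288 CPM in C57BL/6J, 1660 and 2029 in CAST/EiJ, and 2753 and 3483 in NZO/HlLtJ. Smooth muscle and pericyte markers (6 of 6) were lower in CAST/EiJ, at 436 to 539 CPM, than in C57BL/6J (687 to 873) and NZO/HlLtJ (636 to 768). The part of these differences in the results on strains was not tested, and in bulk tissue fewer cells of a type and less RNA per cell cannot be told apart. Transcripts of the mitochondrial genome took 27.4% ± 1.12 of the counts in C57BL/6J, 21.9% ± 0.986 in CAST/EiJ and 22.6% ± 1.01 in NZO/HlLtJ (SD, n = 8 each). With those genes left out, Nnt differed between CAST/EiJ and C57BL/6J by 0.73 on the log2 scale, close to the value with them.

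Nnt ran from 399 to 819 CPM over the 24 libraries, with the highest coefficient of variation of the members (23.8%, against 15.6% for Gpx4, the next), and its 3 strains did not overlap. It was highest in CAST/EiJ, intermediate in NZO/HlLtJ and lowest in C57BL/6J, where its transcripts were still abundant. Nnt (ENSMUSG00000025453) lies on the minus strand of chromosome 13, from 119335448 to 119408997 (GRCm38). In C57BL/6J females Nnt stood at 459 and 435 CPM on 10% fat and at 469 and 424 CPM on 44% fat. In C57BL/6J males it stood at 432 and 430 CPM on 10% fat and at 430 and 399 CPM on 44% fat. These 8 values were the lowest of the study. In CAST/EiJ females Nnt stood at 796 and 819 CPM on 10% fat and at 750 and 647 CPM on 44% fat. In CAST/EiJ males it stood at 626 and 640 CPM on 10% fat and at 677 and 817 CPM on 44% fat. These were the 8 highest values and the most scattered, with a coefficient of variation of 11.5% against 4.92% in C57BL/6J. In NZO/HlLtJ females Nnt stood at 505 and 553 CPM on 10% fat and at 534 and 513 CPM on 44% fat. In NZO/HlLtJ males it stood at 501 and 495 CPM on 10% fat and at 483 and 530 CPM on 44% fat. All 8 lay above every C57BL/6J library and below every CAST/EiJ library.

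The mean Nnt level was 435 ± 21.4 CPM in C57BL/6J, 721 ± 82.9 in CAST/EiJ and 514 ± 23.2 in NZO/HlLtJ (SD, n = 8 each). CAST/EiJ exceeded C57BL/6J 1.65-fold (log2 0.73, SE 0.04, adjusted p = 4.64e-11, edgeR quasi-likelihood test with Benjamini-Hochberg adjustment over all genes tested, as for every adjusted p here). NZO/HlLtJ exceeded C57BL/6J by 0.24 on the log2 scale (SE 0.04, adjusted p = 0.000213). NZO/HlLtJ was lower than CAST/EiJ, with a log2 difference of -0.48 (SE 0.04, adjusted p = 1.51e-08). Within the sexes and diets, the excess of CAST/EiJ over C57BL/6J ran from 0.56 in males on 10% fat to 0.85 in females on 10% fat.

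What an Nnt count stands for in each strain is limited by the annotation. The GRCm38 reference is itself a C57BL/6J genome and holds no sequence for the exons that this strain has lost. The longest annotated model has 17 exons, 16 of them coding, and 2505 coding bases. How reads from the lost exons were assigned in CAST/EiJ and NZO/HlLtJ is not given in the sources used here. A count over the whole gene therefore does not check the deletion, and it gives the amount of transcript, not of enzyme. The annotation also holds a second gene named Nnt (ENSMUSG00000116207), whose 3339 exon bases all lie in exons of the first and which was not used here. The deposited Nnt counts were whole in 24 of 24 libraries, while those of Prdx5 were not whole in 24 of 24, those of Glrx2 in 23 and those of Txnrd2 in 16, so those values rest on estimated assignment of reads.

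Idh2, the other NADPH source among the members, had the reverse order of strains. C57BL/6J libraries ran from 1180 to 1278 CPM (median 1241), CAST/EiJ libraries from 828 to 1052 (median 946) and NZO/HlLtJ libraries from 1005 to 1095 (median 1033). C57BL/6J lay above both other strains without overlap, and CAST/EiJ and NZO/HlLtJ overlapped. Relative to C57BL/6J, Idh2 was lower in CAST/EiJ, with a log2 difference of -0.38 (SE 0.03, adjusted p = 1.57e-08), and in NZO/HlLtJ, with -0.24 (SE 0.03, adjusted p = 1.48e-05). It was higher in NZO/HlLtJ than in CAST/EiJ by 0.14 (SE 0.03, adjusted p = 0.00188). Nnt and Idh2 were the members for which all 3 pairs of strains passed the test, with opposite signs in each pair.

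Between CAST/EiJ and C57BL/6J, 9 of 9 members passed the test, 5 higher and 4 lower in CAST/EiJ, where 58.8% of all genes tested passed (29.1% higher and 29.7% lower). The libraries of these strains did not overlap for 7 of the 9, against 27% of all genes. Between NZO/HlLtJ and C57BL/6J, 2 of 9 passed, against 35.5% of all genes. Those were Nnt, which was higher (17.9% of all genes), and Idh2, which was lower (17.6%). These same members were the 2 without overlap in that pair, against 12.2% of all genes. Between NZO/HlLtJ and CAST/EiJ, 8 of 9 passed, 4 in each direction, against 60.3% of all genes (30.5% higher and 29.8% lower), and 5 of 9 did not overlap, against 26.8%. The median size of the log2 difference over the members was 0.25 between CAST/EiJ and C57BL/6J, with 0.31 over all genes, and 0.04 between NZO/HlLtJ and C57BL/6J, with 0.18 over all genes. Whether CAST/EiJ and NZO/HlLtJ reads were matched to the C57BL/6J reference or to their own strain's sequence is not given in the sources used here. The part of read matching in these strain differences was not tested. The plot of levels by library shows the members gene by gene.

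**Figure D1:**
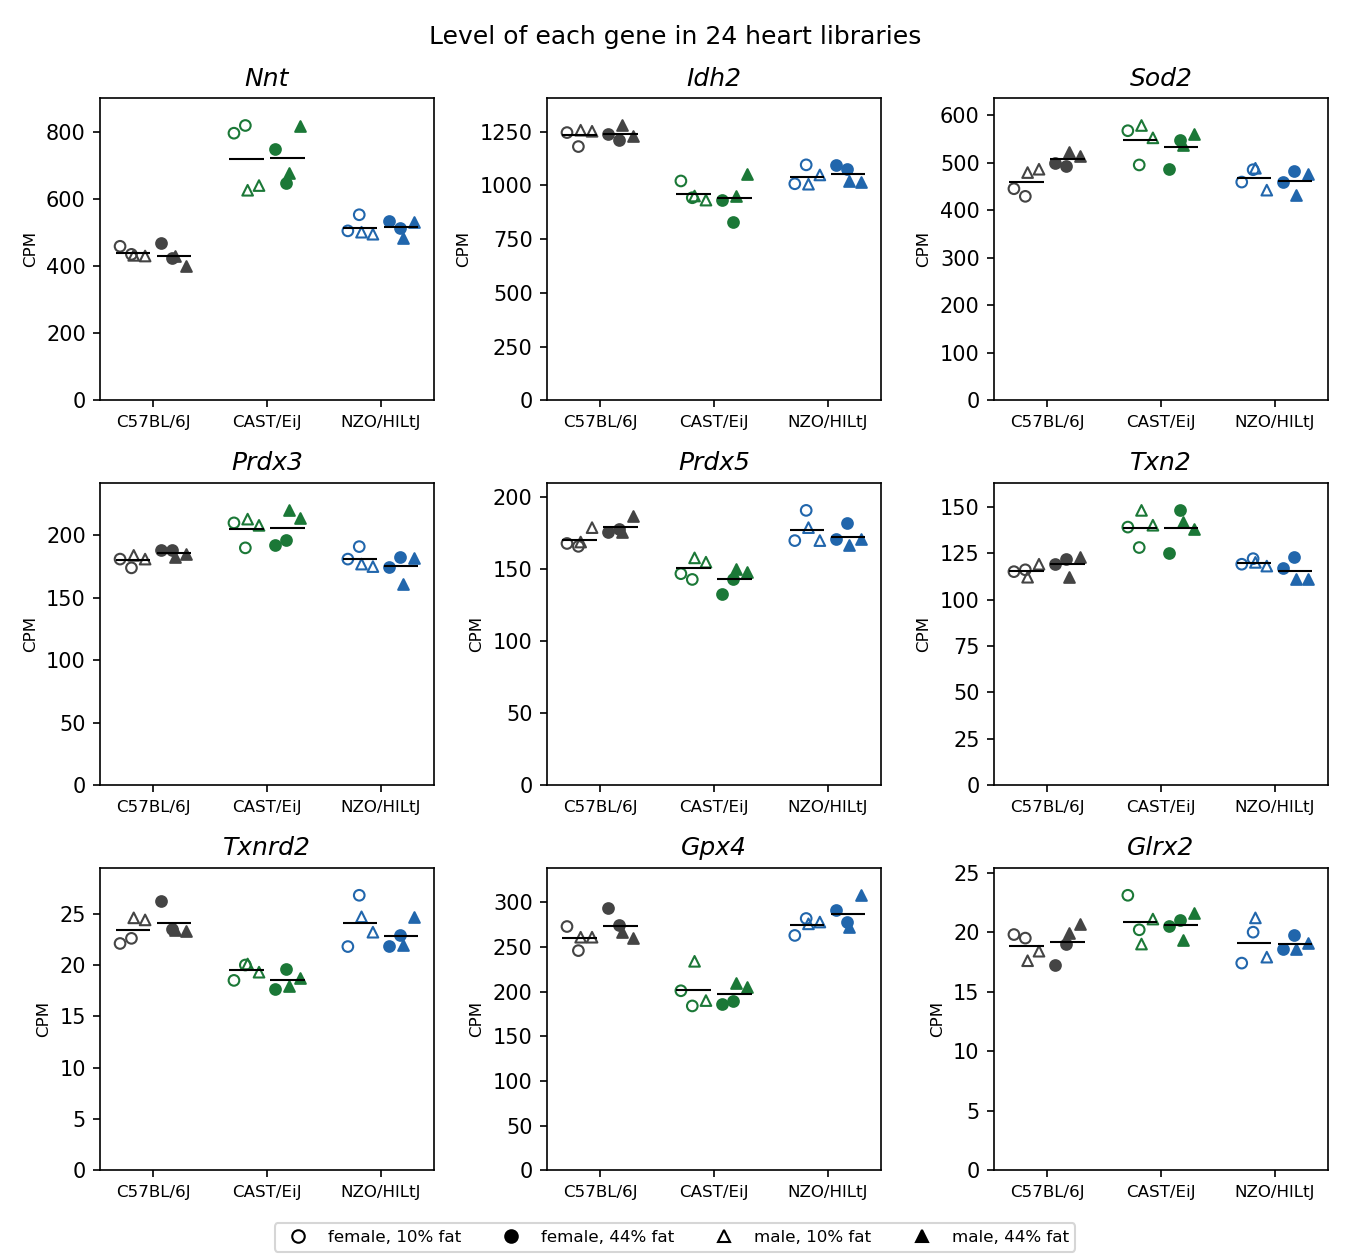
Level of each member in CPM (linear axis from 0) in 24 libraries, by strain; circles are females, triangles males, open symbols 10% fat, filled symbols 44% fat, and lines are means of 4 libraries. Nnt separates all 3 strains, from 399 to 469 CPM in C57BL/6J to 626 to 819 CPM in CAST/EiJ, while the open and filled symbols of a strain mostly share the same range.

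Sod2 was highest in CAST/EiJ. Its libraries ran from 429 to 523 CPM in C57BL/6J (median 490), from 486 to 578 in CAST/EiJ (median 550) and from 432 to 488 in NZO/HlLtJ (median 467). The CAST/EiJ range overlapped both others, with 6 of 8 libraries above every C57BL/6J library. CAST/EiJ exceeded C57BL/6J by 0.16 on the log2 scale (SE 0.04, adjusted p = 0.00114) and NZO/HlLtJ fell by 0.21 relative to CAST/EiJ (SE 0.04, adjusted p = 7.19e-05). The difference between NZO/HlLtJ and C57BL/6J was -0.05 (SE 0.04, adjusted p = 0.307). The excess of CAST/EiJ over C57BL/6J was 0.28 in females and 0.23 in males on 10% fat, and 0.06 in females and 0.08 in males on 44% fat.

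The peroxiredoxin and thioredoxin system was split between strains. Prdx3 and Txn2 were higher in CAST/EiJ than in C57BL/6J, and Prdx5 and Txnrd2 were lower. Prdx3 libraries ran from 174 to 188 CPM in C57BL/6J, 190 to 220 in CAST/EiJ and 161 to 191 in NZO/HlLtJ, so that every CAST/EiJ library exceeded every C57BL/6J library. Prdx3 was higher in CAST/EiJ by 0.17 on the log2 scale (SE 0.03, adjusted p = 0.00019). Txn2 libraries ran from 112 to 123 CPM in C57BL/6J, 125 to 148 in CAST/EiJ and 111 to 123 in NZO/HlLtJ, with CAST/EiJ above both without overlap. Txn2 was higher in CAST/EiJ than in C57BL/6J by 0.24 (SE 0.04, adjusted p = 1.52e-05).

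Prdx5, which reduces peroxides in mitochondria, peroxisomes and the cytosol, ran from 166 to 187 CPM in C57BL/6J, 133 to 158 in CAST/EiJ and 167 to 191 in NZO/HlLtJ. Txnrd2, the reductase of thioredoxin 2, ran from 22.1 to 26.2 CPM in C57BL/6J, 17.7 to 20.1 in CAST/EiJ and 21.8 to 26.8 in NZO/HlLtJ. For both genes CAST/EiJ lay below the other strains without overlap, and C57BL/6J and NZO/HlLtJ shared a range. Relative to C57BL/6J, the CAST/EiJ log2 difference was -0.25 for Prdx5 (SE 0.03, adjusted p = 1.83e-06) and -0.32 for Txnrd2 (SE 0.05, adjusted p = 1.19e-05). Prdx5 overlaps Trmt112, a gene on the opposite strand, over 409 exon bases (19.1% of its exon length). Whether counting used strand is not given in the sources used here, so part of the Prdx5 counts may belong to Trmt112.

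Against NZO/HlLtJ the same 4 genes differed from CAST/EiJ with the same directions. NZO/HlLtJ minus CAST/EiJ was -0.21 for Prdx3 (SE 0.03, adjusted p = 1.67e-05) and -0.24 for Txn2 (SE 0.04, adjusted p = 1.65e-05). It was 0.25 for Prdx5 (SE 0.03, adjusted p = 1.54e-06) and 0.31 for Txnrd2 (SE 0.05, adjusted p = 1.96e-05). These comparisons share the CAST/EiJ libraries with those against C57BL/6J. Between NZO/HlLtJ and C57BL/6J the 4 log2 differences lay from -0.04 (Prdx3, adjusted p = 0.352) to 0.00 (Txn2, adjusted p = 0.966), and none passed. For Txn2 the 95% interval of that difference ran from -0.07 to 0.08, and for Prdx3 from -0.11 to 0.03.

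Of the glutathione-linked members, Gpx4 differed most. Its libraries ran from 246 to 294 CPM in C57BL/6J (median 264), 184 to 234 in CAST/EiJ (median 196) and 263 to 308 in NZO/HlLtJ (median 278). Every CAST/EiJ library was below every library of the other strains. Gpx4 was lower in CAST/EiJ than in C57BL/6J, with a log2 difference of -0.42 (SE 0.04, adjusted p = 9.62e-08), and higher in NZO/HlLtJ than in CAST/EiJ by 0.49 (SE 0.04, adjusted p = 9.75e-09). NZO/HlLtJ minus C57BL/6J was 0.07 (SE 0.04, adjusted p = 0.2). With a term for the range of library identifiers it was 0.12 (adjusted p = 0.0442).

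Glrx2 libraries ran from 17.2 to 20.7 CPM in C57BL/6J, 19 to 23.1 in CAST/EiJ and 17.4 to 21.2 in NZO/HlLtJ, with overlap in every pair. It was higher in CAST/EiJ than in C57BL/6J by 0.13 on the log2 scale (SE 0.05, adjusted p = 0.0404), the call closest to the threshold among the members. That call was lost with DESeq2 (adjusted p = 0.0521) and when 11 of the 24 libraries were left out in turn. NZO/HlLtJ minus CAST/EiJ was -0.12 (SE 0.05, adjusted p = 0.0506), and it passed when any of 5 libraries was left out. It also passed with the term for identifier range (-0.14, adjusted p = 0.0416), with limma-voom (adjusted p = 0.0452), with DESeq2-style size factors (0.0487), without the mitochondrially encoded genes (0.0305) and with no filter (0.0496).

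**Figure D2:**
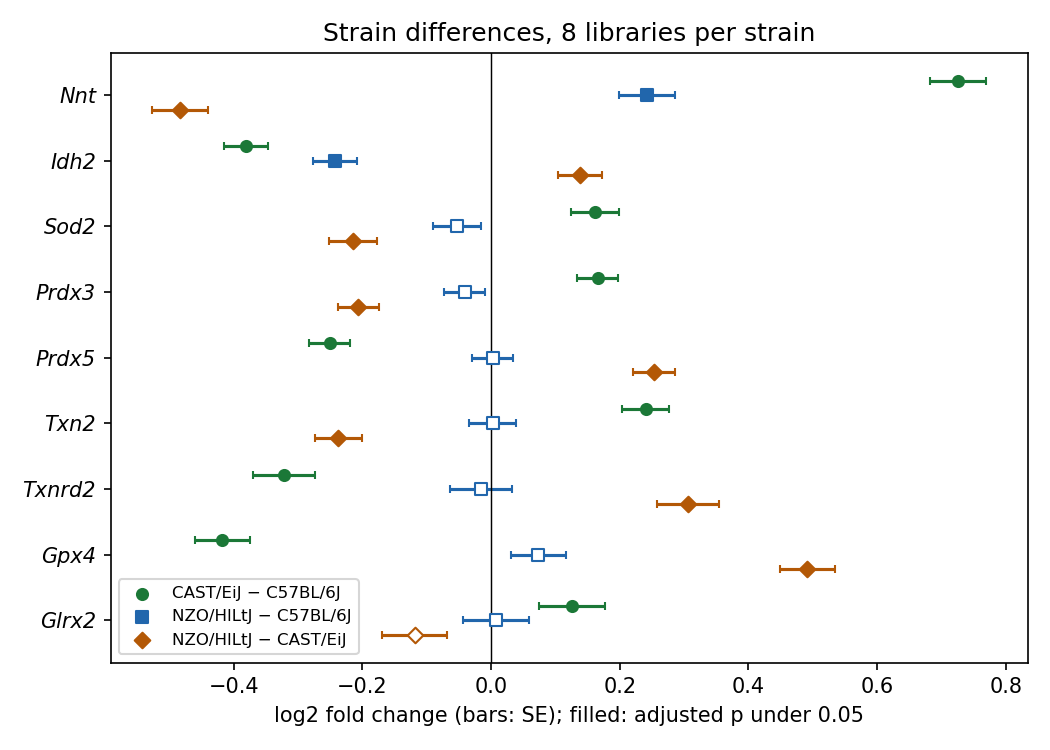
Log2 fold change of each member between strains (8 libraries each) with standard errors; filled symbols passed an adjusted p of 0.05. Nnt and Idh2 have filled symbols in all 3 comparisons, with opposite signs, and the NZO/HlLtJ minus C57BL/6J values of the other 7 members lie between -0.05 and 0.07.

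The library identifiers in the titles fell into 3 ranges, of which the first held no NZO/HlLtJ library. Within these ranges all 9 members kept the sign of the difference between CAST/EiJ and C57BL/6J. For Nnt it was 0.67 in the first range (4 against 4 libraries), 0.81 in the second and 0.76 in the third (2 against 2 each). For Sod2 it was 0.15, 0.07 and 0.27. NZO/HlLtJ minus C57BL/6J for Nnt was 0.32 in the second range and 0.25 in the third (4 against 2 libraries each).

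Summed over the 9 members, the strains were near each other, at 2939 ± 71.9 CPM in C57BL/6J, 2943 ± 144 in CAST/EiJ and 2818 ± 90.3 in NZO/HlLtJ (SD, n = 8 each), with overlapping libraries. The sums hold opposite differences. From C57BL/6J to CAST/EiJ the mean of Nnt went from 435 to 721 CPM and that of Idh2 from 1236 to 950. Per kilobase of the transcript with the longest coding sequence, Idh2 had the highest level in each strain and Txnrd2 the lowest, at 708 and 12.5 CPM per kilobase in C57BL/6J. In C57BL/6J the order of levels was Idh2, Gpx4, Prdx5, Nnt, Prdx3, Txn2, Sod2, Glrx2 and Txnrd2, and it was the same in NZO/HlLtJ. The neighbours Gpx4 and Prdx5, Nnt and Prdx3, and Txn2 and Sod2 overlapped in C57BL/6J, and no neighbours did in NZO/HlLtJ. In CAST/EiJ Nnt came next after Idh2, at 208 CPM per kilobase, but it overlapped Gpx4 (201), which overlapped Prdx5 (195), and Txn2 overlapped Sod2. The order was also taken per kilobase of all annotated exons within the interval that the authors' table gives for each gene. Prdx3 and Sod2 then moved ahead of Nnt in each strain and Glrx2 became the lowest, so these orders depend on the length used. The Sod2 transcript in the annotation (5861 bases) extends beyond that interval, which left 4290 exon bases for Sod2, fewer than the transcript has. In CAST/EiJ Sod2 stood at 126 CPM per kilobase with that length and 92.1 with its transcript, against 103 for Nnt over its exons. The move of Sod2 ahead of Nnt in CAST/EiJ thus depends on the shortened length.

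No member passed the test between diets. Over the 3 strains, 0 of 9 passed the test between 44% and 10% fat, where 0.157% of all genes passed. The log2 differences lay between -0.04 (Txnrd2) and 0.03 (Gpx4), and the smallest adjusted p was 0.846. For Nnt the value was 0.00 (SE 0.04), with a 95% interval from -0.08 to 0.07. Within strains 0 of 9 passed in C57BL/6J (0.0407% of all genes), 0 of 9 in CAST/EiJ and 0 of 9 in NZO/HlLtJ (0% of all genes in both). Over all genes, edgeR called 0 in CAST/EiJ, with 1137 at an unadjusted p under 0.05 and 29 calls with DESeq2, and 0 in NZO/HlLtJ, with 1233 and 13, so few genes of any kind passed.

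The mean Nnt level on 10% and 44% fat was 439 ± 13.7 and 431 ± 28.9 CPM in C57BL/6J, 720 ± 101 and 723 ± 76.1 in CAST/EiJ, and 513 ± 26.9 and 515 ± 23.1 in NZO/HlLtJ (SD, n = 4 each). For all 9 members the diets overlapped in CAST/EiJ and NZO/HlLtJ, where 2.78% and 3.34% of all genes had no overlap. The 95% interval of the log2 diet difference of Nnt ran from -0.16 to 0.10 in C57BL/6J, -0.11 to 0.14 in CAST/EiJ and -0.12 to 0.13 in NZO/HlLtJ. The bounds of all 3 intervals were smaller in size than the smallest strain difference of Nnt, 0.24.

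Sod2 in C57BL/6J was the single case in which the diets of a strain did not overlap. On 10% fat it stood at 445 and 429 CPM in females and 479 and 486 in males, and on 44% fat at 499 and 493 in females and 523 and 514 in males. All 4 libraries on 44% fat were above all 4 on 10% fat, with means of 507 ± 13.3 and 460 ± 27.1 CPM. In C57BL/6J 1 of 9 members had no overlap, against 4.11% of all genes. The log2 difference was 0.14 (SE 0.05, 95% interval 0.03 to 0.25, unadjusted p = 0.0152) and did not pass over all genes (adjusted p = 0.768). Within the ranges of identifiers it was 0.17 and 0.13 in the first (females and males), 0.08 in the second (males) and 0.20 in the third (females), with 1 library against 1. In the same 4 pairs of C57BL/6J libraries Prdx5 had differences from 0.061 to 0.098 on the log2 scale, and those of Txn2 ran from 0.005 to 0.068, all positive. Each of the remaining members had a negative difference in at least 1 of these pairs, down to -0.201 for Glrx2. In the first range of CAST/EiJ, which held 1 such pair of each sex, the Sod2 differences were -0.22 in females and -0.11 in males. Over all libraries of CAST/EiJ and NZO/HlLtJ the Sod2 diet differences were -0.04 and -0.02.

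The difference of diet effects for Sod2 was -0.18 between CAST/EiJ and C57BL/6J (SE 0.08, unadjusted p = 0.0248, adjusted p = 0.745) and -0.16 between NZO/HlLtJ and C57BL/6J (SE 0.08, unadjusted p = 0.0445, adjusted p = 1). For Prdx5 it was -0.14 between CAST/EiJ and C57BL/6J (SE 0.06, adjusted p = 0.753). Among the diet effects compared between strains 0 of 9 members passed in each of the 3 pairs, against 0%, 0.00581% and 0% of all genes. In CAST/EiJ, the second range of identifiers held 10% fat and the third 44% fat alone, so diet and range cannot be told apart in those 4 libraries. In NZO/HlLtJ, the second range held females on 10% fat and males on 44% fat. The third held females on 44% fat and males on 10% fat. Diet and range thus cannot be told apart within either sex of NZO/HlLtJ, though each diet had libraries in both ranges.

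**Figure D3:**
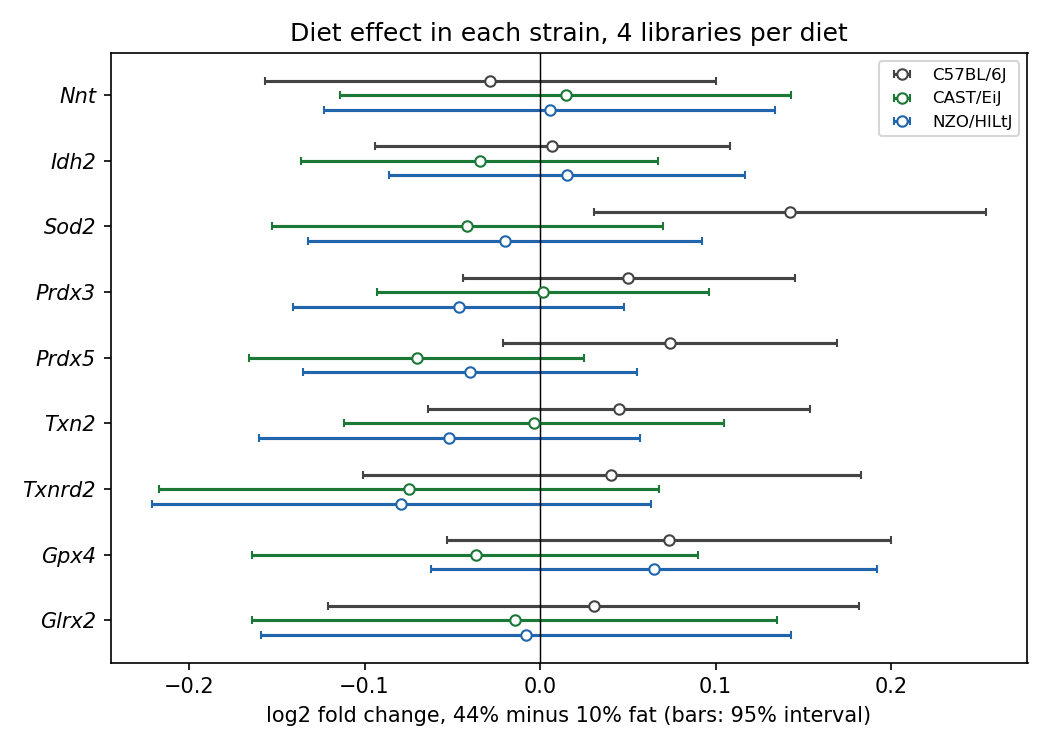
Log2 fold change of each member between 44% and 10% fat in each strain (4 libraries per diet) with 95% intervals, unadjusted. Of the 27 intervals, that of Sod2 in C57BL/6J, from 0.03 to 0.25, does not cross 0, and none of the values passed the adjusted threshold.

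Between the sexes 0 of 9 members passed, against 0.372% of all genes. Nnt had the largest difference, 0.09 higher in females on the log2 scale (SE 0.04, unadjusted p = 0.0185, adjusted p = 0.442), with means of 447 and 423 CPM in females and males of C57BL/6J, 753 and 690 in CAST/EiJ, and libraries from 505 to 553 and from 483 to 530 CPM in NZO/HlLtJ. The scatter of Nnt in CAST/EiJ fell along sex and diet. Both females on 10% fat were above both on 44% fat, and both males on 44% fat were above both on 10% fat. The diet effect of Nnt in CAST/EiJ females minus that in males was -0.45 (SE 0.12, unadjusted p = 0.00178), and that of Idh2 was -0.25 (SE 0.10, unadjusted p = 0.0194). Neither passed over all genes (adjusted p = 0.873 for both), where 0% of genes passed. This comparison was added after the values were seen and has 2 libraries in each cell. In the CAST/EiJ libraries outside the first identifier range, diet and range cannot be told apart. Within the first range, with 1 library against 1, the diet differences of Nnt were -0.09 in females and 0.11 in males. Those of Idh2 were -0.13 in females and -0.001 in males.

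Over the 24 libraries the members fell into blocks, described here by Pearson's r of log2 CPM, which the strains, library sizes and tissue composition all share. Sod2, Prdx3 and Txn2, whose upstream sequences are shown above, correlated at 0.82 to 0.88. Prdx5, Txnrd2 and Gpx4 correlated at 0.86 to 0.89. Nnt was negative against Prdx5 (-0.83), Txnrd2 (-0.79), Gpx4 (-0.79) and Idh2 (-0.75). With the strain means removed, Sod2 and Prdx3 stood at 0.70, Sod2 and Txn2 at 0.58 and Prdx3 and Txn2 at 0.56, and Prdx5 moved with Sod2 (0.78), Txn2 (0.71) and Prdx3 (0.70). Nnt and Idh2, opposed between strains, stood at 0.56 within them, and Nnt and Txn2 turned from 0.70 to -0.48.

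**Figure D4:**
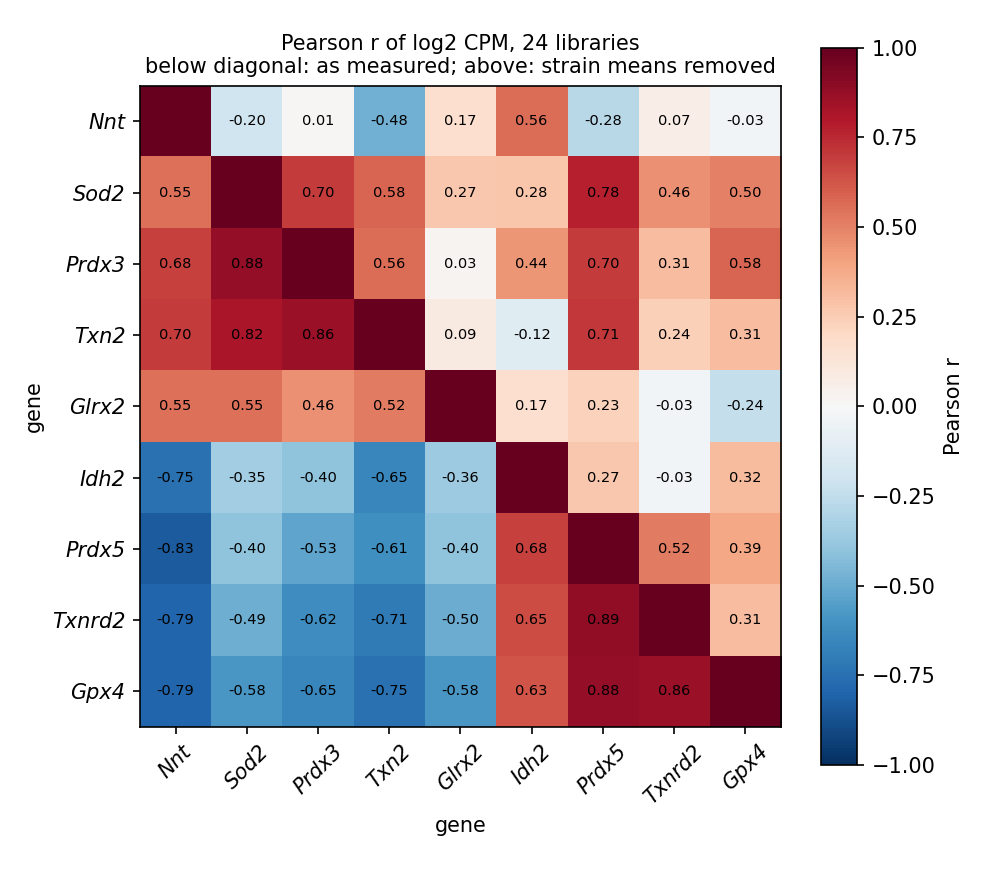
Pearson's r of log2 CPM between members over 24 libraries, as measured (below the diagonal) and after the strain means were removed (above it); red is positive, blue negative. The block of Prdx5, Txnrd2 and Gpx4 at 0.86 to 0.89 falls to between 0.31 and 0.52 once strain means are removed, while Sod2 and Prdx5 go from -0.40 to 0.78.

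Likeness was ranked among 12141 genes with a mean of at least 1 CPM, with genes of predicted or clone-based names left out. The 5 genes most like Nnt over the libraries were Parp4 (r = 0.957), Eif3c (0.951), Cd28 (0.945), Ceacam2 (0.943) and Etohi1 (0.942). All had the same order of strains. Parp4 averaged 45.4, 71.8 and 54.5 CPM in C57BL/6J, CAST/EiJ and NZO/HlLtJ. With strain means removed their r with Nnt was 0.31 to 0.54, so most of the likeness lay between strains. The gene closest to Sod2 was Uqcc1, an assembly factor of respiratory complex III (0.919, and 0.90 with strain means removed). The closest to Prdx3 was Ndufv3, a subunit of complex I (0.934). The closest to Prdx5 was Cox7a1, a muscle subunit of complex IV (0.961), and the closest to Txn2 was Letm1, an inner membrane ion exchanger (0.949). Gpx4 was closest to Rxrg (0.969), Idh2 to Rcn2 (0.935), Txnrd2 to Fkbp4 (0.934) and Glrx2 to Repin1 (0.832).

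Other genes of the mitochondrion and of antioxidant defence were counted in 4 lists, against the shares of all genes tested, which were 29.1% higher and 29.7% lower in CAST/EiJ relative to C57BL/6J, 17.9% and 17.6% in NZO/HlLtJ relative to C57BL/6J, and 30.5% and 29.8% in NZO/HlLtJ relative to CAST/EiJ. The counts are a description and were not tested against those shares. Of 8 other genes listed under mitochondrial NADPH and NADP, not all of which make NADPH, CAST/EiJ had 4 higher and 2 lower than C57BL/6J. There 58.8% of all genes passed (median 0.13, with 0.00 over all genes). Nadk2, the mitochondrial NAD kinase, was lower in CAST/EiJ, with a log2 difference of -0.56 (SE 0.04, adjusted p = 3.77e-10). Me2, the mitochondrial NAD-dependent malic enzyme, was higher by 0.70 (SE 0.07, adjusted p = 8.87e-08). Aldh1l2, a folate enzyme that makes NADPH, was higher by 0.96 (SE 0.10, adjusted p = 6.39e-07). In NZO/HlLtJ against C57BL/6J, 4 were higher and 3 lower, where 35.5% of all genes passed (median -0.04), and Nadk2 was again lower, at -0.21 (SE 0.04, adjusted p = 0.000317). Between NZO/HlLtJ and CAST/EiJ, 2 were higher and 2 lower, where 60.3% of all genes passed (median 0.01).

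Of 19 other mitochondrial redox genes tested, CAST/EiJ had 8 higher and 5 lower relative to C57BL/6J (58.8% of all genes passed, median 0.03). NZO/HlLtJ had 6 higher and 6 lower relative to C57BL/6J (35.5% of all genes, median 0.05), and 6 higher and 8 lower relative to CAST/EiJ (60.3% of all genes, median -0.10). Cycs, which encodes cytochrome c, was higher in CAST/EiJ than in C57BL/6J by 1.71 (SE 0.04, adjusted p = 2.26e-16). Ethe1, a sulfide-oxidizing enzyme, was higher by 1.51 (SE 0.05, adjusted p = 3.17e-15), and the methionine sulfoxide reductase Msrb2 was lower, at -0.71 (SE 0.05, adjusted p = 2.56e-10). Cycs has near-identical processed copies in the genome, and how reads were shared among them is not given in the sources used here.

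Of 35 antioxidant genes of the cytosol, peroxisomes and secreted fluids, CAST/EiJ had 15 higher and 2 lower relative to C57BL/6J (58.8% of all genes passed, median 0.11). Between NZO/HlLtJ and C57BL/6J, 6 were higher and 4 lower (35.5% of all genes, median -0.03), and between NZO/HlLtJ and CAST/EiJ, 5 were higher and 14 lower (60.3% of all genes, median -0.14). The cytosolic Prdx1 was higher in CAST/EiJ than in C57BL/6J by 0.48 (SE 0.03, adjusted p = 1.97e-10), and Gclc, the catalytic subunit of the first enzyme of glutathione synthesis, by 0.86 (SE 0.06, adjusted p = 2.82e-10). The cytosolic superoxide dismutase Sod1 differed in NZO/HlLtJ from C57BL/6J by -0.36 (SE 0.04, adjusted p = 2.98e-07).

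Of 20 genes of mitochondrial content (respiratory chain subunits, porins and chaperones), CAST/EiJ had 11 higher and 2 lower relative to C57BL/6J (29.1% and 29.7% of all genes, median 0.11). In NZO/HlLtJ 2 were higher and 9 lower than in C57BL/6J (17.9% and 17.6% of all genes, median -0.08), and 1 higher and 15 lower than in CAST/EiJ (30.5% and 29.8% of all genes, median -0.18). The ATP synthase subunit Atp5b, for example, was higher in CAST/EiJ than in C57BL/6J by 0.33 (SE 0.03, adjusted p = 4.88e-09) and lower in NZO/HlLtJ, at -0.23 (SE 0.03, adjusted p = 2.42e-06). The porin Vdac1 went the other way in CAST/EiJ, at -0.36 relative to C57BL/6J (SE 0.03, adjusted p = 3.51e-09). The part of mitochondrial content in the members' differences was not tested. In these 4 lists 0 genes passed between diets, over the strains or in any strain.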

How the data were processed

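Poly(A) RNA of mouse heart was sequenced as paired reads in 24 libraries, per the labels' protocols. The values used are the authors' expected counts, which are estimated numbers of reads for each gene (19.3% were not whole at a tolerance of 1e-06). The submitters' processing notes name GRCm38 and DESeq2 but give them no role. The aligner, counter and strand setting were not given in the sources used here. A matrix of variance-stabilized values was not used. Counts were rounded and tested with the quasi-likelihood test of edgeR 4.0.16 in R 4.3.3. It was fitted to 12 group means of 2 libraries each with TMM scaling, after a filter (minimum count 10, minimum total 15) that removed 3758 of 20961 genes. Calls had a Benjamini-Hochberg adjusted p under 0.05 over 17203 genes. Samples were grouped by title, and no group's replicates agreed within sampling noise (chi-square per degree of freedom 10.9 to 64.3). The script was tested on simulated data. Alternatives were DESeq2 1.42.0, limma 3.58.1 (voom), other scaling, no filter, a term for identifier range, subsets of libraries, and each library left out in turn. The members and gene lists were chosen with earlier results of these data known. Named were the members, the genes most like each by correlation, and up to 3 called genes of smallest adjusted p per list and strain pair, of which some are printed. Levels are CPM, and annotation came from GENCODE M21 and RefSeq.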

Additional observations from a re-analysis of the deposited data

Results flagged for a closer look

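The members' levels were tested for a library far from the others in 54 sets of 4 libraries (strain and diet) and 27 sets of 8 (strain). In 4 of the sets of 4 and 0 of the sets of 8 a library stood apart, where chance gives about 1 in 20. Nnt stood at 459 CPM in a C57BL/6J female on 10% fat, with the nearest of the other 3 libraries at 435. Nnt stood at 553 CPM in an NZO/HlLtJ female on 10% fat, with the nearest at 505. Idh2 stood at 1180 CPM in a C57BL/6J female on 10% fat, with the nearest at 1245. Txnrd2 stood at 26.2 CPM in a C57BL/6J female on 44% fat, with the nearest at 23.5. All 4 were females, in 4 different libraries.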

How the results depend on the processing

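The member with the lowest level, Glrx2, had at least 17.2 CPM, and the part of depth and of the number of libraries in its calls was not tested. Of the 19 strain differences of members that passed the test, 585 of 598 values under the alternatives also passed and 0 changed sign. The 13 losses all concerned Glrx2 between CAST/EiJ and C57BL/6J, for which the adjusted p ran from 0.0202 to 0.227 over all 32 alternatives. The losses came with DESeq2, in the first identifier range alone, and without any of 11 libraries. These were, of C57BL/6J, female 10% fat replicates 1 and 2, female 44% fat replicate 1, male 10% fat replicate 1 and male 44% fat replicates 1 and 2, and of CAST/EiJ, female 10% fat replicate 1, female 44% fat replicates 1 and 2, male 10% fat replicate 2 and male 44% fat replicate 2. Glrx2 between NZO/HlLtJ and CAST/EiJ passed under 10 of 31 alternatives (adjusted p from 0.018 to 0.145), among them without CAST/EiJ male 10% fat replicate 1, male 44% fat replicate 1 and female 10% fat replicate 2, and without NZO/HlLtJ female 10% fat replicate 2 and male 10% fat replicate 1. Gpx4 between NZO/HlLtJ and C57BL/6J passed under 1 of 31. Leaving out a library moved the number of members called from 9 to 8 at the lowest between CAST/EiJ and C57BL/6J and from 8 to 9 at the highest between NZO/HlLtJ and CAST/EiJ. No member passed for diet, for a difference of diet effects or for sex under any alternative (lowest adjusted p 0.246, 0.479 and 0.243), and among those uncalled values 96 of 1125, 55 of 846 and 19 of 270 had the opposite sign.

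Counts over all genes moved more. With DESeq2 they were 105 for diet over the 3 strains, 38 in C57BL/6J, 29 in CAST/EiJ, 13 in NZO/HlLtJ, 9, 4 and 3 for the diet effects of CAST/EiJ against C57BL/6J, NZO/HlLtJ against C57BL/6J and NZO/HlLtJ against CAST/EiJ, and 137 for sex. DESeq2-style size factors in edgeR, and leaving out the mitochondrially encoded genes, each gave 1 for the diet effect of CAST/EiJ against C57BL/6J. The identifier range as a term gave 17 for diet over the strains, 4 in CAST/EiJ and 4 for the diet effect of CAST/EiJ against C57BL/6J. A fit to only the libraries compared gave 36 for diet in C57BL/6J and 0 for the diet effect of NZO/HlLtJ against C57BL/6J, and the first identifier range alone gave 0 for diet in C57BL/6J and 17 in CAST/EiJ. Without each library in turn the counts ran from 4 to 143 for diet over the strains, 1 to 20 in C57BL/6J, 0 to 18 in CAST/EiJ and 0 to 113 in NZO/HlLtJ, from 0 to 8, 0 to 3 and 0 to 4 for the 3 diet effects in the order above, and from 39 to 78 for sex. The cause was not tested. No paired analysis was possible because the labels give no replicate numbers, and those used here follow accession order and pair no libraries. The identifier range was fitted as a term in its place, and libraries of the same sex and range were set side by side without a test.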

Other observations

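The 24 genes annotated with a selenocysteine codon, Gpx4 and Txnrd2 among them, were grouped after their values were seen. Of 20 tested, CAST/EiJ had 6 higher and 8 lower relative to C57BL/6J (29.1% and 29.7% of all genes, median log2 -0.14, with 0.00 over all genes). NZO/HlLtJ had 2 higher and 0 lower relative to C57BL/6J (17.9% and 17.6% of all genes, median 0.02), and 10 higher and 3 lower relative to CAST/EiJ (30.5% and 29.8% of all genes, median 0.19). Relative to C57BL/6J, the CAST/EiJ log2 difference was -0.99 for Selenow (SE 0.04, adjusted p = 1.35e-13), a small selenoprotein abundant in muscle, -0.83 for Selenoi (adjusted p = 1.21e-09), and -0.71 for Selenoh (adjusted p = 1.37e-06). Selenon, whose product bears on calcium handling in muscle, was higher by 0.27 (adjusted p = 1.72e-05), and Txnrd1, the cytosolic counterpart of Txnrd2, by 0.21 (adjusted p = 0.00196).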
